A study of Mus musculus with 4 samples.

Results

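The 50 genes described here encode subunits of the receptors for glutamate, GABA and glycine, and they are 50 of the 24322 gene symbols listed in each library. Membership goes by gene symbol and uses no measured value, although the set was chosen with earlier results of these data known. They comprise 4 AMPA, 5 kainate, 7 NMDA and 8 metabotropic glutamate receptor genes, 16 GABA-A, 3 GABA-A rho and 2 GABA-B receptor genes, and 5 glycine receptor genes. Levels are given as FPKM, the fragments on a gene scaled by exon length and by the size of the library, which can be compared between genes because the length is divided out. Of the 50 genes, 46 were above 0 FPKM in at least 1 library, 37 were above 0 in all 4 libraries, 27 had a mean FPKM of at least 1 and 12 of at least 10.

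The study asked what the loss of *Rax*, a homeobox gene of the retina, does to Müller glial cells after birth. Cells positive for the teal fluorescent protein mTFP1 were sorted from the retinas of 4 mice, and 1 RNA-seq library was made per mouse. Both control mice (7984 and 3911) were Raxflox/WT, with 1 floxed allele, and both *Rax* iCKO mice (7983 and 3914) were Raxflox/flox. All 4 carried the same Rlbp1-CreERT2 transgene and the R26-CAG-LoxP-mTFP1 reporter, were given tamoxifen at P4 and were collected at P14, and the labels name 129S6. The mTFP1 signal therefore marks any cell in which the *Rlbp1* promoter fragment drove the recombinase, and the control mice could themselves lose an allele of *Rax* in those cells. In what follows, a pair of values for control stands for mice 7984 and 3911 in that order, and a pair for *Rax* iCKO for mice 7983 and 3914. The libraries were estimated to hold between 9270000 and 12710000 mapped reads, at which 1 FPKM is between 9.27 and 12.7 reads per kilobase of transcript.

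Glutamate opens the AMPA, kainate and NMDA receptors, which are cation channels, and acts through G proteins on the metabotropic receptors. GABA and glycine open chloride channels built from several subunits, while GABA-B receptors are G protein-coupled. In the retina, photoreceptors release glutamate onto bipolar cells. ON bipolar cells read it through mGluR6, the product of *Grm6*, which closes the TRPM1 channel, and OFF bipolar cells through kainate and AMPA receptors. GABA receptors made of rho subunits sit on bipolar cell axon terminals. Müller glial cells clear glutamate and GABA from the synapses through transporters.

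The labelled cell type was checked against its markers before the receptor genes were compared. All 12 Müller glia markers were above 0 in every library, and their summed level was 16045 and 12199 FPKM in the controls and 10949 and 11045 in the *Rax* iCKO mice. All 10 markers of ON bipolar cells were above 0 as well, with sums of 4124 and 10531 FPKM in the controls and 5670 and 8436 in the *Rax* iCKO mice. The 6 markers of cone bipolar cells, all above 0, summed to 539.8 and 965 FPKM in the controls and to 732 and 1105 in the *Rax* iCKO mice. The 10 rod markers, also all above 0, summed to 1716 and 1774 FPKM in the controls and to 1226 and 1116 in the *Rax* iCKO mice. RNA of bipolar cells and rods was thus present in every library, least for both bipolar lists in control mouse 7984. The 8 cone markers summed to between 158 and 200.2 FPKM in the controls and between 143 and 199.6 in the *Rax* iCKO mice. The 10 amacrine cell markers summed to at most 17.9 FPKM, the 10 ganglion cell markers to at most 15.5, with *Pou4f1* and *Pou4f3* at 0 in every library, and the 4 horizontal cell markers to at most 1.08. The 7 pigment epithelium markers summed to at most 3.35 FPKM, with *Mlana* at 0 throughout, and the 3 astrocyte markers to at most 14.1. The 8 microglia markers summed to 40.1 and 43.3 FPKM in the controls and to 73.3 and 9.69 in the *Rax* iCKO mice. The 6 endothelial markers summed to between 230.4 and 466 FPKM in the controls and between 242 and 386 in the *Rax* iCKO mice, of which only *Kdr* had a mean of at least 1. In sorted bulk RNA, fewer cells of a type and less RNA per cell cannot be told apart.

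The libraries also differed in their sex-linked RNA. *Xist*, the RNA that coats the inactive X, was at 24.5 and 21.2 FPKM in the controls and at 0.0119 and 0.00605 in the *Rax* iCKO mice, while the Y-linked *Eif2s3y* was at 43.7 FPKM in *Rax* iCKO mouse 7983 and at 0 in the other 3 libraries. *Xist* thus separated the groups, so its level and the genotype cannot be told apart in any comparison given here. Of the receptor genes, 6 lie on the X chromosome (*Gria3*, *Gabra3*, *Gabre*, *Gabrq*, *Glra2* and *Glra4*). *Rax*, the targeted gene, was at 189 and 181 FPKM in the controls and at 111 and 98.4 in the *Rax* iCKO mice.

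The 3 receptor genes with the most RNA were *Gabrr1*, *Gabrr2* and *Grm6*, which together held between 60.1% and 66.0% of the summed FPKM of all 50 in each library. The study takes 5′-TAATT-3′ as the predicted site of Rax, so the 250 bases before the start of these 3 genes are shown, from RefSeq on GRCm38.p6. Capitals mark TAATT or TAATCC, the site of the homeobox factors CRX and OTX2 of photoreceptors and bipolar cells, on either strand. All 3 genes are transcribed from the plus strand, and the stretches are chr4:33132306-33132555 for *Gabrr1*, chr4:33062862-33063111 for *Gabrr2* and chr11:50850435-50850684 for *Grm6*. The starts of *Gabrr2* and *Grm6* used here lie inside the widest span of each gene, and all gene spans are those of RefSeq on GRCm38.
Gabrr1: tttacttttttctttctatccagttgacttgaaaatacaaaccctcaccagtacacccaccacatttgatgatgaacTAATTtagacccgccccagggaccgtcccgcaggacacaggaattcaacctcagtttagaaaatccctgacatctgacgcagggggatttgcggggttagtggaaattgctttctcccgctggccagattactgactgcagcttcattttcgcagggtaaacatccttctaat
Gabrr2: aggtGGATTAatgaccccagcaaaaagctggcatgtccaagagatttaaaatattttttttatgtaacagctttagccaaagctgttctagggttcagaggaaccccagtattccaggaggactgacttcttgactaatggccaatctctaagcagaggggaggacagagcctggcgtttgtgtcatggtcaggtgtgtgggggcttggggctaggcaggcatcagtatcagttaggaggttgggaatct
Grm6: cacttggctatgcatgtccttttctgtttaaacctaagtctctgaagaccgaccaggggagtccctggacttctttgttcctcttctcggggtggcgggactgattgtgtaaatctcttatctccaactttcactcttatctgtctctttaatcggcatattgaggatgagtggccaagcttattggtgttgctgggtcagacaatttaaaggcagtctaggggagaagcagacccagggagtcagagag
The *Gabrr1* stretch holds 1 TAATT, whose first base lies 173 bases upstream of the start. The *Gabrr2* stretch holds 1 GGATTA, the reverse complement of TAATCC, with its first base 246 bases upstream, and the *Grm6* stretch holds neither.

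RefSeq promoter windows of 300 bases, from 250 bases before the start to 50 after it, were matched to 36 of the 50 receptor genes, as 43 windows. TAATT or its reverse complement AATTA was in 7 of these 43 windows (16.3%), against 27.0% of all 32851 windows of the same length. TAATCC or GGATTA was in 2 of the 43 (4.65%), against 7.06% of all. The 7 windows with TAATT belong to *Gabra6*, *Gabrb1*, *Gabrb2* with 2 windows, *Gabrg1*, *Gabrr1* and *Glra3*, and those with TAATCC to *Gabra2* and *Gabrr2*. A match says only that these letters stand in the window.

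Among the receptor genes whose mean FPKM was 1 or more, none passed the test between control and *Rax* iCKO after adjustment. Limma on log2(FPKM + 1), fitted over the 12363 genes with such a mean, called 0 of the 27 at an adjusted p under 0.05, where it called 3 genes in all (0.0243%), 1 higher (0.00809%) and 2 lower (0.0162%). The adjusted p was 0.9999 for each of the 27. Blocking by the run of mouse numbers, as a replicate block, it called 0 of the 27 as well, against 0.574% of all genes. At an unadjusted p under 0.05 it called 1 of the 27, *Gria3*, which was lower, against 2.86% of all genes tested. The rule of the study, a ratio of means over 2 or under its inverse joined with an unadjusted p under 0.05 from the study's own two-sample test on FPKM, which is not the limma p, took 0 of the 27 and 0.332% of all genes. *Gria3* was also the only gene of the 27 whose mean reached 1 through the control libraries alone.

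The log2 fold change, *Rax* iCKO against control, was above 0 for 20 of the 27 receptor genes and below 0 for 7, with a median of 0.26, while 49.2% of all genes tested were above 0, with a median of -0.0044. Without control mouse 7984, 13 of the 27 were above 0 and 14 below, with a median of -0.012. Without *Rax* iCKO mouse 7983 the split was 15 to 12 and the median 0.07. With the 16 bipolar cell markers as the scale, a choice made after seeing the data, 15 were above 0 and 12 below, with a median of 0.0098, and 18.8% of all genes were above 0, with a median of -0.25. That scale lowers the log2 fold change of every gene by the same amount. Both *Rax* iCKO libraries lay above both controls for 6 of the 27, among them *Gabbr1*, *Gabra3*, *Gria1*, *Grin1* and *Grm6*, against 15.4% of all genes. They lay below both for 3, namely *Gria3*, *Gria4* and *Grik2*, against 14.1%, which makes 9 without overlap, against 29.5% in either direction. With the bipolar cell markers as the scale, 2 genes lay above both controls (2.09% of all genes), *Gabrr2* among them, and 4 lay below both (29.9% of all genes), namely *Gabrb2*, *Gria3*, *Gria4* and *Grik2*, while *Gabbr1*, *Gabra3*, *Gria1*, *Grin1* and *Grm6* overlapped.

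**Figure D1:**
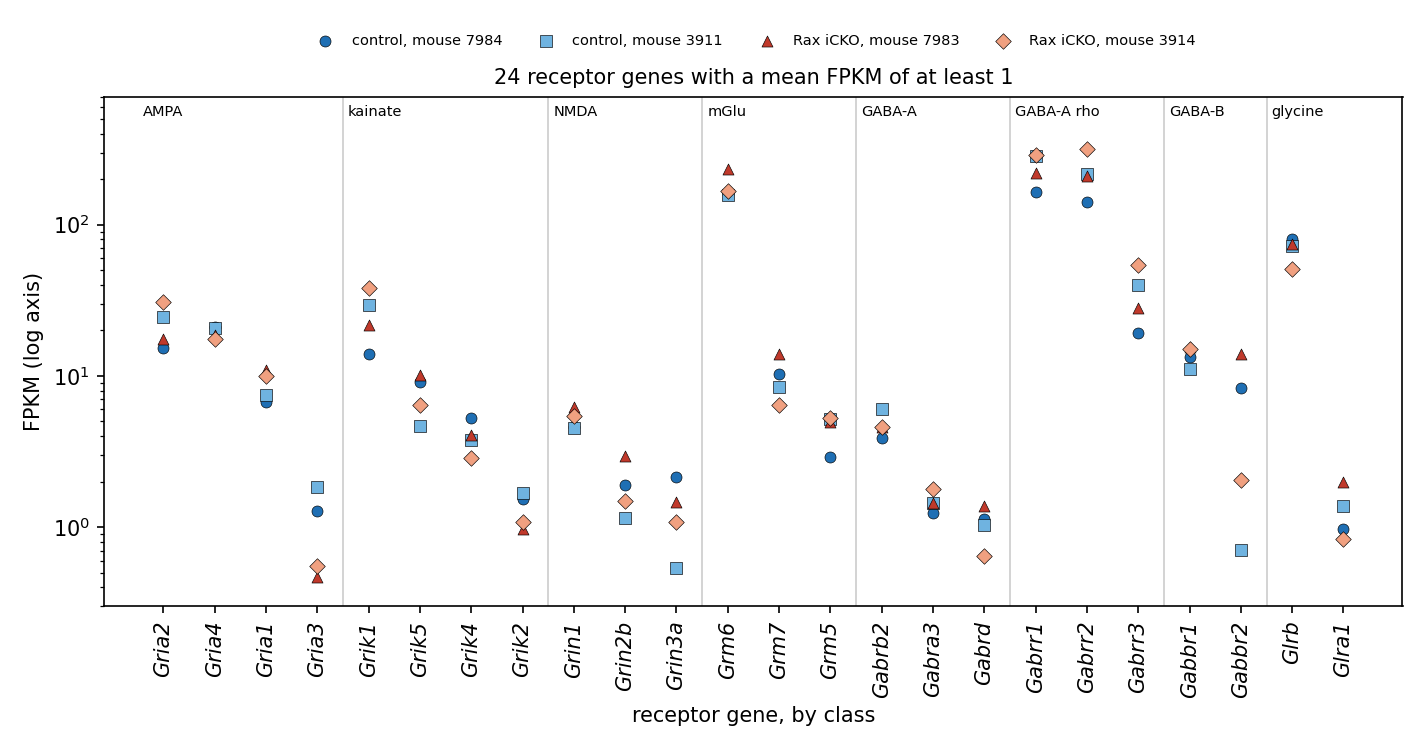
FPKM (log axis) of 24 receptor genes whose mean was at least 1, ordered by receptor class, with 1 point per library and no error bars. *Gabrr1*, *Gabrr2* and *Grm6* lie between 141 and 315 FPKM in every library, and *Gria3* shows a gap between the control points (1.28 and 1.84) and the *Rax* iCKO points (0.465 and 0.557).

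The AMPA receptor genes took no common direction. *Gria4*, which encodes the GluA4 subunit, was at 20.9 and 20.9 FPKM in the controls and at 18.6 and 17.4 in the *Rax* iCKO mice. *Gria1*, for GluA1, was at 6.76 and 7.48 FPKM in the controls and at 10.9 and 9.92 in the *Rax* iCKO mice. Both genes separated the groups, in opposite directions, so that their ratio had to separate them as well. The ratio of *Gria1* to *Gria4* FPKM was 0.323 and 0.358 in the controls and 0.586 and 0.569 in the *Rax* iCKO mice. The means of *Gria1* were 7.12 ± 0.508 (SD, n = 2) in the controls and 10.4 ± 0.700 (SD, n = 2) in the *Rax* iCKO mice, a ratio of 1.46. Its log2 fold change was 0.49 (95% interval -0.07 to 1.06). For *Gria4* the log2 fold change was -0.20 (95% interval -0.70 to 0.29). With the bipolar cell markers as the scale the log2 fold change was 0.25 for *Gria1* and -0.45 for *Gria4*. *Gria2*, for the GluA2 subunit that keeps calcium out of the channel, was at 15.2 and 24.4 FPKM in the controls and at 17.5 and 30.8 in the *Rax* iCKO mice. Its groups overlapped, and the higher value of each group came from the mouse with the higher cone bipolar marker sum. The part of those cells in the level of *Gria2* was not tested.

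*Gria3*, which encodes GluA3 and lies on the X chromosome of GRCm38 from 41400819 to 41678601, had the lowest log2 fold change of the 27. Its FPKM was 1.28 and 1.84 in the controls and 0.465 and 0.557 in the *Rax* iCKO mice, so that both *Rax* iCKO libraries were below the lower control. The means were 1.56 ± 0.395 (SD, n = 2) and 0.511 ± 0.0648 (SD, n = 2), a ratio of 0.327. On the log2(FPKM + 1) scale, which understates the change of low genes, the difference was -0.75 (95% interval -1.499 to -0.01), with an unadjusted limma p of 0.0477 that did not hold after adjustment. The value stayed between -0.91 and -0.60 when each library in turn was left out. *Xist* also separated the groups, and its part in the level of *Gria3* was not tested. *Gabra3*, the other X-linked receptor gene with a mean of at least 1, had *Rax* iCKO values above the controls.

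Of the kainate receptor genes, *Grik1* had the most RNA. It encodes GluK1, a kainate subunit of OFF bipolar cells, and was at 13.9 and 29.3 FPKM in the controls and at 21.8 and 38.3 in the *Rax* iCKO mice. The groups overlapped, and the standard error of the log2 fold change of 0.49 was 0.42. Without control mouse 7984 the log2 fold change was -0.018. The ratio of *Grik1* to *Cabp5*, a calcium-binding protein gene of bipolar cells, varied less, at 0.0356 and 0.0417 in the controls and 0.0390 and 0.0471 in the *Rax* iCKO mice. *Grik5*, for the auxiliary subunit GluK5, was at 9.13 and 4.68 FPKM in the controls and at 10.1 and 6.37 in the *Rax* iCKO mice. *Grik4*, for GluK4, was at 5.25 and 3.77 FPKM in the controls and at 4.09 and 2.87 in the *Rax* iCKO mice. Neither separated the groups, and in both genes mouse 7984 was above mouse 3911 and mouse 7983 above mouse 3914, the reverse of *Grik1*. *Grik2*, for GluK2, was at 1.52 and 1.69 FPKM in the controls and at 0.970 and 1.08 in the *Rax* iCKO mice, a ratio of 0.637. Both *Rax* iCKO values were below both controls, with a log2 fold change of -0.37 (standard error 0.29). *Grik3* had a mean FPKM of 0.136.

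NMDA receptor RNA was low, with a summed level of 9.09 and 6.33 FPKM in the controls and 11.3 and 8.33 in the *Rax* iCKO mice. *Grin1*, for the obligatory GluN1 subunit, was at 4.62 and 4.53 FPKM in the controls and at 6.20 and 5.42 in the *Rax* iCKO mice. Its groups did not overlap (ratio 1.27, log2 fold change 0.29, standard error 0.25). With the bipolar cell markers as the scale the log2 fold change of *Grin1* was 0.04. *Grin2b*, for the glutamate-binding GluN2B subunit, was at 1.90 and 1.15 FPKM in the controls and at 2.96 and 1.498 in the *Rax* iCKO mice. *Grin3a*, for the glycine-binding GluN3A subunit, was at 2.14 and 0.535 FPKM in the controls and at 1.46 and 1.08 in the *Rax* iCKO mice. Both overlapped between the groups. *Grin2a*, for GluN2A, was listed at 0 in all 4 libraries, and *Grin2c*, *Grin2d* and *Grin3b* had means of at most 0.254 FPKM. *Grin2c* and *Grin2d* were each listed at 0 in 1 library, and their groups overlapped.

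Among the metabotropic glutamate receptor genes, *Grm6* held between 91.6% and 93.3% of the summed FPKM in each library. It lies on chromosome 11 from 50850369 to 50866208 and was at 160.4 and 156 FPKM in the controls and at 233 and 166 in the *Rax* iCKO mice. Both *Rax* iCKO values were above both controls, with most of the gap in mouse 7983. The means were 158 ± 3.13 (SD, n = 2) in the controls and 199.5 ± 47.4 (SD, n = 2) in the *Rax* iCKO mice, a ratio of 1.26, with a log2 fold change of 0.31 (95% interval -0.31 to 0.94). Without *Rax* iCKO mouse 7983 the log2 fold change was 0.07, and it was also 0.07 with the bipolar cell markers as the scale. *Grm7*, which encodes the presynaptic receptor mGluR7, was at 10.3 and 8.41 FPKM in the controls and at 14.04 and 6.39 in the *Rax* iCKO mice, which overlap. *Grm5*, for mGluR5, was at 2.92 and 5.16 FPKM in the controls and at 4.97 and 5.27 in the *Rax* iCKO mice, and control mouse 7984 stood below the other 3 libraries. *Grm2*, *Grm3*, *Grm4* and *Grm8* had means of at most 0.395 FPKM.

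Genes of the mGluR6 cascade of ON bipolar cells were read beside *Grm6*, in a list that also holds the calcium channel gene *Cacna1f*, which is not part of that cascade. Of 12 such genes, 11 were tested, 0 passed the adjusted limma threshold, 3 had an unadjusted p under 0.05 and were higher, and all 11 had a log2 fold change above 0, with a median of 0.50 (all genes -0.0044). Without *Cacna1f*, 2 of the 10 had an unadjusted p under 0.05, and the median was 0.45. At an unadjusted p under 0.05, 1.26% of all genes were higher. The list shares 6 genes with the ON bipolar markers. *Trpm1*, the channel that mGluR6 closes, was at 178 and 213 FPKM in the controls and at 293 and 327 in the *Rax* iCKO mice (log2 fold change 0.67). *Gpr179*, which holds the RGS proteins at the dendritic tip, was at 23.7 and 18.8 FPKM in the controls and at 36.2 and 30.6 in the *Rax* iCKO mice (log2 fold change 0.63). *Cacna1f*, for the calcium channel of photoreceptor and bipolar terminals, was at 17.6 and 11.7 FPKM in the controls and at 32.2 and 28.4 in the *Rax* iCKO mice (log2 fold change 1.02). All 3 separated the groups more widely than *Grm6* did, but they are named because they passed the unadjusted threshold. The ratio of *Grm6* to *Trpm1* FPKM was 0.899 and 0.732 in the controls and 0.794 and 0.507 in the *Rax* iCKO mice. The list members with the most RNA were *Gng13*, for a G protein gamma subunit of ON bipolar cells, at 1337 and 2742 FPKM in the controls and 1836 and 2278 in the *Rax* iCKO mice, and *Gnb3*, for its beta subunit partner, at 965 and 1472 in the controls and 1377 and 1713 in the *Rax* iCKO mice. Both overlapped between the groups. The part of a differing share of bipolar cell RNA in these values was not tested.

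**Figure D2:**
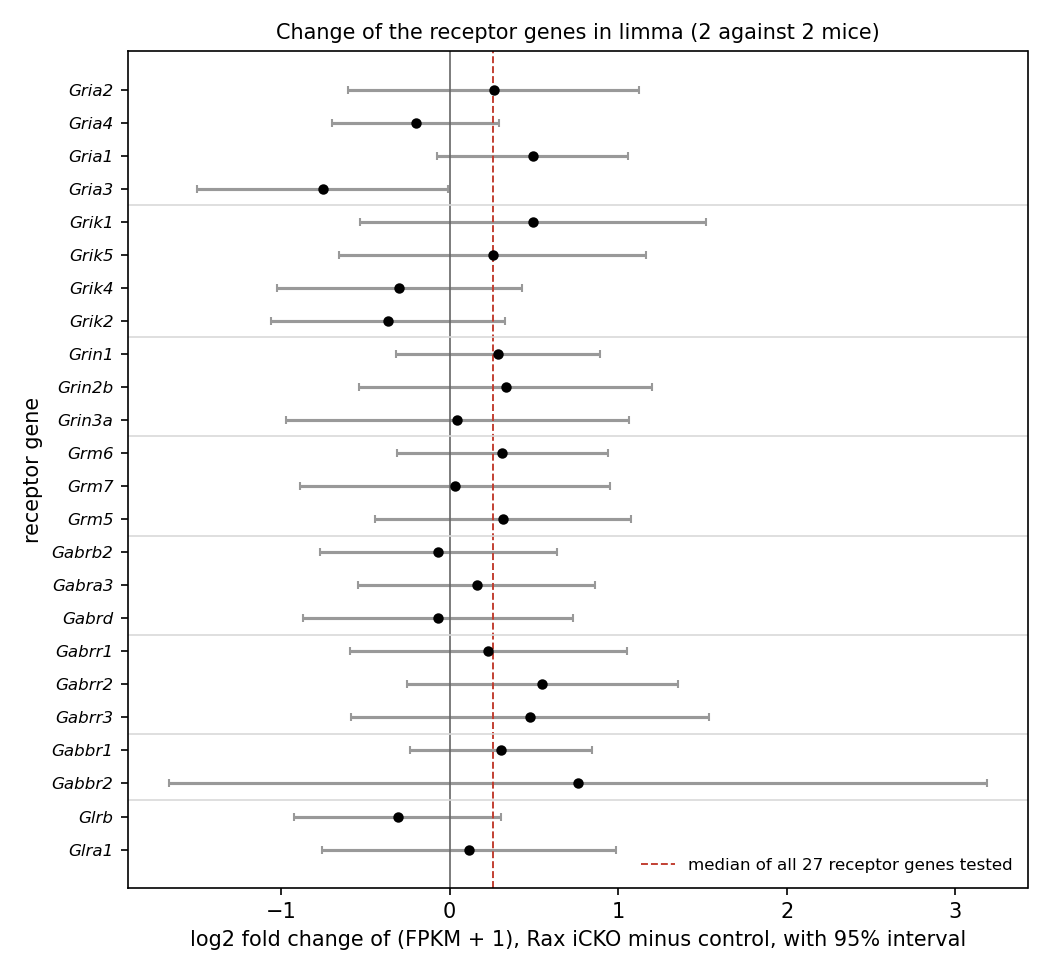
Log2 fold change of (FPKM + 1), *Rax* iCKO against control, for 24 of the 27 receptor genes, as points with limma's 95% interval, ordered by receptor class. The dashed line is the median of all 27 (0.26), and each interval shown reaches across 0 apart from that of *Gria3* (-1.499 to -0.01).

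The rho genes held the most receptor RNA, with a summed level of 324 and 540.4 FPKM in the controls and 459 and 658 in the *Rax* iCKO mice. *Gabrr1* and *Gabrr2* are neighbours on chromosome 4, from 33132556 to 33163588 and from 33057712 to 33095865, and encode the rho1 and rho2 subunits. *Gabrr1* was at 164 and 283 FPKM in the controls and at 221 and 289 in the *Rax* iCKO mice, and ranked 383 of all gene symbols by its mean. *Gabrr2* was at 141 and 218 FPKM in the controls and at 210 and 315 in the *Rax* iCKO mice. *Gabrr3*, for rho3, was at 19.3 and 39.8 FPKM in the controls and at 28.3 and 54.0 in the *Rax* iCKO mice. In each of the 3 genes control mouse 7984 was the lowest library and *Rax* iCKO mouse 3914 the highest, and the groups overlapped. The means of *Gabrr2* were 179 ± 54.1 (SD, n = 2) in the controls and 262 ± 74.6 (SD, n = 2) in the *Rax* iCKO mice, a ratio of 1.46, and its log2 fold change was 0.55 (95% interval -0.25 to 1.36), which became 0.24 without control mouse 7984 and 0.86 without control mouse 3911, and 0.26 and 0.84 without *Rax* iCKO mice 3914 and 7983. For *Gabrr1* the ratio of means was 1.14 and the log2 fold change 0.23 (95% interval -0.59 to 1.05), and for *Gabrr3* they were 1.39 and 0.48. Without control mouse 7984 both log2 fold changes turned to below 0, at -0.16 for *Gabrr1* and -0.025 for *Gabrr3*, and with the bipolar cell markers as the scale that of *Gabrr1* was -0.016. The ratio of *Gabrr1* to *Gabrr2* was 1.16 and 1.30 in the controls and 1.05 and 0.918 in the *Rax* iCKO mice, so that it separated the groups. The cone bipolar marker sums rank the 4 libraries in the same order as the 3 rho genes do, with mouse 7984 lowest, then mice 7983 and 3911, and mouse 3914 highest. Most of each sum came from *Cabp5*, at 390 and 703 FPKM in the controls and 558 and 812 in the *Rax* iCKO mice. Of the cone bipolar markers, *Cabp5*, *Scgn* and *Neto1* had this order, and *Vsx1*, *Tacr3* and *Lhx3* did not. The ON bipolar marker sums also had mouse 7984 lowest and mouse 7983 next, but mouse 3911 highest (4124 and 10531 FPKM in the controls, 5670 and 8436 in the *Rax* iCKO mice). Most of each of these sums came from *Pcp2* and *Gng13*, which were highest in mouse 3911, as were *Isl1* and *Sebox*. *Trpm1*, *Nyx*, *Gpr179*, *Prkca* and *Rgs11* were highest in a *Rax* iCKO mouse, and *Lrit3* in mouse 7984. In all, 7 of the 27 receptor genes (*Gabrr1*, *Gabrr2*, *Gabrr3*, *Grik1*, *Gria2* and *Grm5* among them) had the order of the rho genes, against 7.61% of all genes tested. The comparison was made after the order had been seen. The 7 include the 3 rho genes by which the order is described, so part of that count was fixed beforehand. The part of bipolar cell RNA in the rho levels was not tested.

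**Figure D3:**
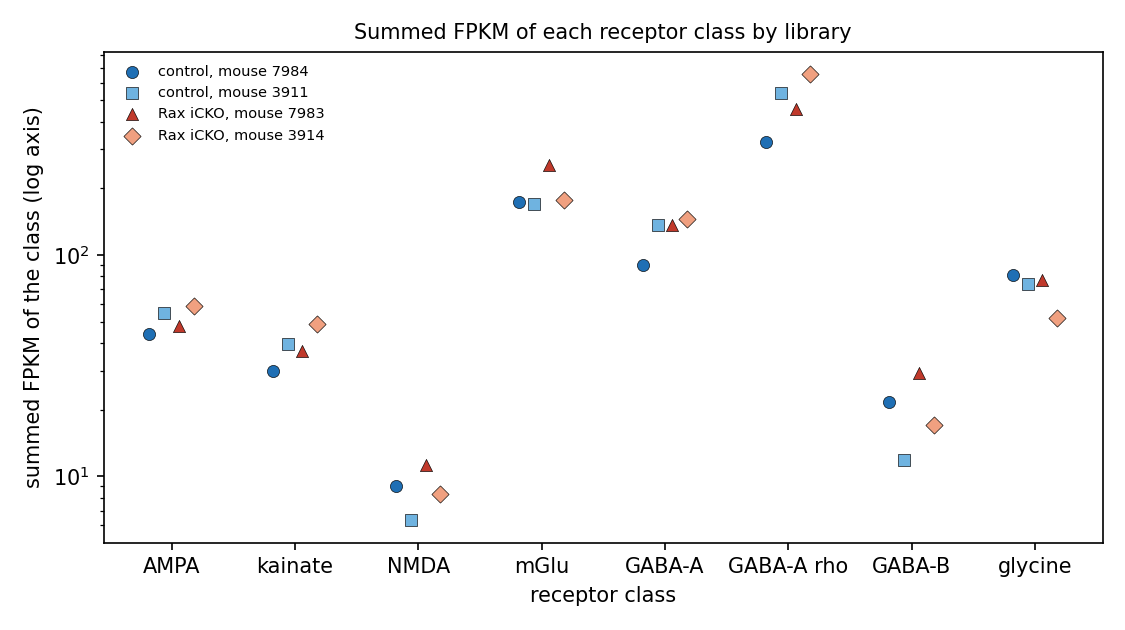
Summed FPKM (log axis) of each receptor class in each library, with 1 point per library. The rho class is the highest in every library (324 and 540.4 in the controls, 459 and 658 in the *Rax* iCKO mice), and of the 8 classes the glycine class alone has a lower mean sum in the *Rax* iCKO mice (ratio 0.827).

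Of the 16 GABA-A genes outside the rho class, 6 had a mean FPKM of at least 1, and their summed level overlapped between the groups. *Gabrb2*, for beta2, was at 3.89 and 6.02 FPKM in the controls and at 4.59 and 4.58 in the *Rax* iCKO mice. *Gabra3*, for alpha3, was at 1.25 and 1.43 FPKM in the controls and at 1.44 and 1.79 in the *Rax* iCKO mice, where the higher control (1.435) and the lower *Rax* iCKO value (1.441) all but met. *Gabrd*, for the delta subunit of receptors outside synapses, was at 1.12 and 1.03 FPKM in the controls and at 1.39 and 0.639 in the *Rax* iCKO mice. The groups of *Gabrb2* and *Gabrd* overlapped, and the log2 fold changes of these 3 genes lay between -0.07 and 0.16. That of *Gabrb2* was 0.19 without control mouse 3911, that of *Gabrd* 0.20 without *Rax* iCKO mouse 3914, and that of *Gabra3* -0.09 with the bipolar cell markers as the scale.

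Most GABA-A genes lie in clusters, and those of lower level are given by cluster. *Gabra5*, for the alpha5 subunit, was at 0.508 and 0.871 FPKM in the controls and at 1.41 and 1.13 in the *Rax* iCKO mice, and *Gabrg3*, for gamma3, at 0.533 and 0.805 in the controls and 1.01 and 0.948 in the *Rax* iCKO mice. Both had *Rax* iCKO values above the controls, and with means under 1 FPKM they were not among the genes tested. *Gabra5* overlaps a neighbouring gene, and how its reads were split there is not known. *Gabra6*, known from cerebellar granule cells, was listed at 0 in every library. The chromosome 5 cluster, *Gabrg1*, *Gabra2*, *Gabra4* and *Gabrb1* from 70751047 to 72149572, summed to at most 1.72 FPKM in any library, and *Gabrb1* held the most, at 0.710 and 1.04 in the controls and 0.383 and 1.55 in the *Rax* iCKO mice. The X chromosome cluster, *Gabre*, *Gabra3* and *Gabrq*, summed to at most 1.96 FPKM, and *Gabre* and *Gabrq* had means of at most 0.0414. *Gabrp*, which stands outside the clusters, was listed at 0 in all 4 libraries.

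The GABA-B receptor is a pair of subunits, and their RNA did not keep a fixed ratio. *Gabbr1*, for the subunit that binds GABA, was at 13.3 and 11.2 FPKM in the controls and at 15.5 and 15.0 in the *Rax* iCKO mice. *Gabbr2*, for the subunit that couples to the G protein, was at 8.33 and 0.709 FPKM in the controls and at 13.9 and 2.06 in the *Rax* iCKO mice. *Gabbr1* separated the groups (ratio 1.25, log2 fold change 0.31, standard error 0.22). Its log2 fold change ran from 0.19 to 0.42 with a library left out, and was 0.06 with the bipolar cell markers as the scale. *Gabbr2* was high in mice 7984 and 7983 and low in mice 3911 and 3914 (log2 fold change 0.76, 95% interval -1.67 to 3.19, and from -0.46 without control mouse 3911 to 1.98 without control mouse 7984). The ratio of *Gabbr1* to *Gabbr2* accordingly ran from 1.11 in mouse 7983 to 15.7 in mouse 3911. *Gabbr2* was the only one of the 27 genes that stood over 2-fold apart between mice 7983 and 7984 and mice 3911 and 3914 on the log2(FPKM + 1) scale, against 3.83% of all genes tested. *Cacng4*, an AMPA receptor partner, was also far higher in mice 7984 and 7983 than in mice 3911 and 3914, at 104.9 and 12.5 FPKM in the controls and 90.8 and 16.2 in the *Rax* iCKO mice.

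The glycine class was nearly all *Glrb*, which held between 96.5% and 98.5% of its FPKM and encodes the beta subunit that ties the receptor to gephyrin. *Glrb* was at 80.2 and 72.4 FPKM in the controls and at 74.0 and 50.7 in the *Rax* iCKO mice. The groups overlapped because mouse 7983 lay between the controls, and the log2 fold change was -0.31 (95% interval -0.92 to 0.30). Leaving out mouse 3914 brought it to -0.04, and leaving out mouse 7983 to -0.58. *Glra1*, for the alpha1 subunit that binds glycine, was at 0.968 and 1.38 FPKM in the controls and at 1.98 and 0.833 in the *Rax* iCKO mice. The *Rax* iCKO mice thus lay on either side of the controls, and the ratio of *Glrb* to *Glra1* ran from 37.3 to 82.8. *Glra2* had a mean of 0.282 FPKM. *Glra3* was listed at 0 in both controls and at 0.0832 and 0.169 FPKM in the *Rax* iCKO mice. The smallest whole read numbers that fit its values in the *Rax* iCKO mice were 1 and 2. *Glra4* was listed at 0 in all 4 libraries.

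The proteins that hold or carry these receptors were read from 3 further lists, beside shares over all genes tested of 49.2% above 0 and, at an unadjusted p under 0.05, 1.26% higher and 1.60% lower. Of 19 partners of AMPA and kainate receptors, 14 were tested, 11 had a log2 fold change above 0 and the median was 0.26, with 0 past an unadjusted p of 0.05. *Nsf*, which recycles AMPA receptors, had the most RNA, at 156 and 239 FPKM in the controls and 217 and 271 in the *Rax* iCKO mice. Of 15 scaffold genes of excitatory synapses, 12 were tested, 9 were above 0 and the median was 0.10, and *Shank1* alone passed the unadjusted threshold. *Shank1* was at 4.24 and 2.05 FPKM in the controls and at 7.54 and 6.05 in the *Rax* iCKO mice (log2 fold change 0.96). The scaffold genes with the most RNA were *Dlgap4*, at between 19.7 and 25.3 FPKM over the 4 libraries, and *Dlg3*, at between 11.7 and 15.7, and both overlapped between the groups. Of 14 partners of inhibitory receptors, 12 were tested, 8 were above 0 and the median was 0.09. In that list *Lhfpl4*, which brings GABA-A receptors to the synapse, was at 17.4 and 14.7 FPKM in the controls and at 29.0 and 23.6 in the *Rax* iCKO mice (log2 fold change 0.68, past the threshold before adjustment only). *Gabarapl2* and *Gabarap*, of the autophagy and receptor transport family, had the most RNA there. *Gabarapl2* was at 266 and 329 FPKM in the controls and at 275 and 265 in the *Rax* iCKO mice, and *Gabarap* was at 223 and 268 in the controls and at 171 and 186 in the *Rax* iCKO mice. *Gabarap* thus lay below both controls in both *Rax* iCKO libraries, with a log2 fold change of -0.45. Limma called 0 genes of any of these lists after adjustment.

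Genes for the transport and metabolism of the same transmitters had fold changes on either side of 0. Of 20 such genes, 14 were tested, 6 were above 0 and 8 below, with a median log2 fold change of -0.02. *Slc1a7*, for a glutamate transporter of photoreceptors and bipolar cells, was at 71.1 and 80.8 FPKM in the controls and at 109 and 111 in the *Rax* iCKO mice, and passed the unadjusted limma threshold only (log2 fold change 0.53). *Glul*, for the glutamine synthetase of Müller glia, was at 1702 and 1121 FPKM in the controls and at 1002 and 1197 in the *Rax* iCKO mice. *Slc1a3*, for their glutamate transporter GLAST, was at 1334 and 939 FPKM in the controls and at 1035 and 618 in the *Rax* iCKO mice. Both Müller glia genes overlapped between the groups, with their highest value in control mouse 7984, which had the lowest rho values.

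Read by library, the receptor genes deviated less than the ON bipolar markers in each of the 4 libraries, and less than the cone bipolar, Müller glia and rod markers in each library apart from *Rax* iCKO mouse 7983. The median deviation of the 27 genes from their mean over the 4 libraries was -0.14 and 0.04 in the controls and 0.12 and -0.04 in the *Rax* iCKO mice on the log2(FPKM + 1) scale. For the 9 ON bipolar markers tested it was -0.46 and -0.07 in the controls and 0.20 and 0.20 in the *Rax* iCKO mice, and for the 6 cone bipolar markers -0.44 and 0.22 in the controls and -0.11 and 0.34 in the *Rax* iCKO mice. For the 12 Müller glia markers it was 0.45 and -0.10 in the controls and -0.09 and -0.23 in the *Rax* iCKO mice, and for the 10 rod markers 0.26 and 0.20 in the controls and -0.11 and -0.48 in the *Rax* iCKO mice. The receptor genes were thus lowest in control mouse 7984, the library with the lowest bipolar and the highest Müller glia markers, and 0 markers of these lists were called by limma after adjustment. By median log2 fold change the ON bipolar markers stood at 0.39, the cone bipolar markers at 0.19, the Müller glia markers at -0.31 and the rod markers at -0.58, of which 4 of 10 had an unadjusted p under 0.05 (1.60% of all genes were lower at it), beside the 0.26 of the receptor genes. The part of the cell types in the difference was not tested.

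**Figure D4:**
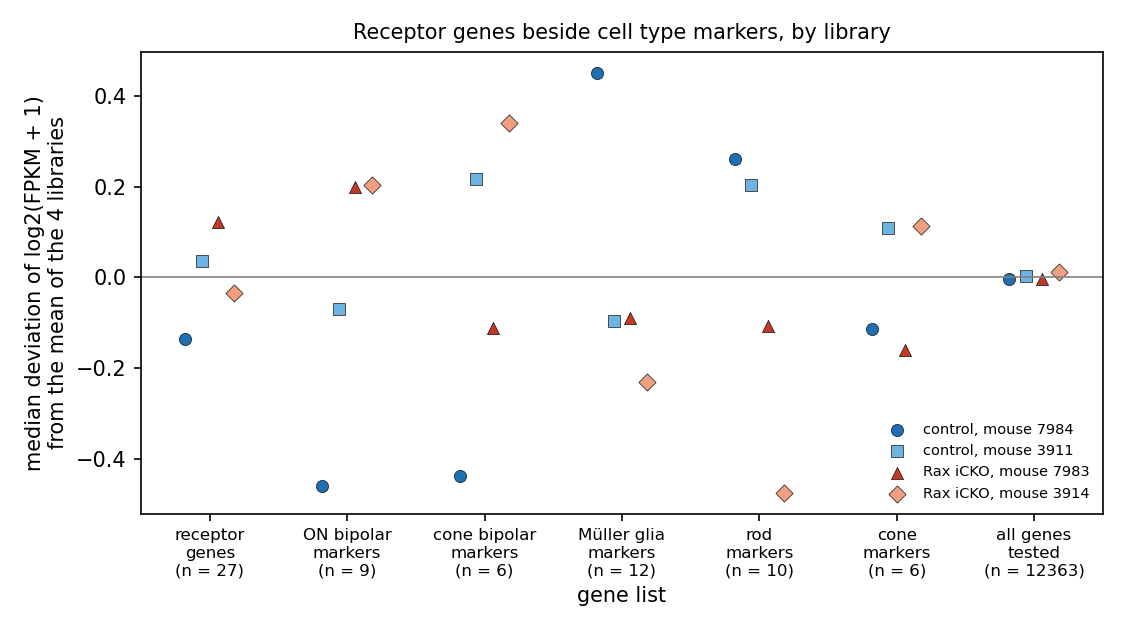
Median deviation of log2(FPKM + 1) from the mean of the 4 libraries, for the receptor genes, for marker lists and for all genes tested, with 1 point per library. Control mouse 7984 is the lowest point for the receptor genes (-0.14) and for the ON bipolar markers (-0.46) and the highest for the Müller glia markers (0.45).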

How the data were processed

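RNA-seq was analysed from 4 libraries of sorted mTFP-positive retinal cells, 2 control and 2 *Rax* iCKO, with groups taken from the genotype labels. Single-end reads were aligned by the authors to the mm10 genome (TopHat, Bowtie2, SAMtools), and an FPKM per gene was deposited for each library. The paper names Cufflinks for this step, whereas the submitters' processing notes name TopHat2 2.1.1, Bowtie2 2.2.8, SAMtools 0.1.18 and Cuffdiff 2.2.1, so the scaling between libraries is not settled, and FPKM were used as deposited. FPKM are relative to the size of a library, so abundant genes can shift the others. Use of the strand is not given in the sources used here. RNA was isolated with a column kit per the labels and with TRIzol LS per the paper.

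The test was limma 3.58.1 under R 4.3.3, lmFit followed by eBayes with a variance trend, applied to log2(FPKM + 1) of all 12363 genes averaging 1 FPKM or more. Adjustment over these genes followed Benjamini and Hochberg. Of the steps, the limma fit alone was also run on simulated data, drawn with the spread of these genes. With 2 mice against 2, a two-sided exact permutation test cannot go below 0.333. Reads were estimated from the whole-read steps of 2310 genes under 0.5 FPKM, of which 81.95% came out whole within 0.05 reads, against 15.67% after random noise.

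All 50 symbols matched RefSeq genes of GRCm38. Values in every library are given for receptor genes averaging at least 1 FPKM and for those of at least 0.5 whose groups do not overlap, and *Gabrb1* was added after its values were seen. From each other list, genes past an unadjusted p of 0.05 and the 2 with the highest mean are named. Also named are a few marker genes that a ratio uses, the bipolar cell markers whose order over the libraries is given, *Mlana*, *Kdr*, *Pou4f1* and *Pou4f3*, chosen after their values were seen. A few receptor genes enter the counts, sums and medians but are not reported one by one here. The receptor genes and all lists were chosen with earlier results of these data known. Alternatives tried were quantile normalization, scaling to equal medians, a pseudocount of 0.1, no filter on low values, a minimum mean of 5 FPKM, eBayes without the trend, the run of mouse numbers as a replicate block, the omission of each library and, added after seeing the data, the bipolar cell markers as the scale.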

Additional observations from a re-analysis of the deposited data

How the results depend on the processing

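Limma called 0 of the 27 receptor genes after adjustment under every alternative run. With 2 mice a group the power is low, and 1 FPKM is about 9.27 to 12.7 reads per kilobase of transcript, so that the lowest genes rest on few reads. The number with an unadjusted p under 0.05 was 1 (*Gria3*) and became 0 with pseudocount 0.1 (2.83% of all genes), at a mean FPKM of at least 5 (3.04%) and with the bipolar cell markers as the scale (4.55%), 2 (*Gabrr2* among them) with quantile normalization (3.30%), and between 0 and 4 when each library in turn was left out (1.04% to 4.46% of all genes). It was 2 without control mouse 7984 (*Gabbr2* and *Gria3*), 4 without control mouse 3911 (*Gabrr2*, *Gabrr3* and *Grik1* among them), and 0 without either *Rax* iCKO mouse. With the run of mouse numbers (7983 with 7984, 3911 with 3914) as a replicate block it was 7 (*Gabbr2*, *Gabrr2*, *Gabrr3*, *Gria1*, *Gria3* and *Grik1* among them, against 15.7% of all genes), and the lowest limma adjusted p was 0.0857, for *Gabrr2*, where 0.574% of all genes passed the adjusted threshold. The labels give no pairing, and 2 pairs cannot show one. Within those pairs, 21 of the 27 genes differed in the same direction, against 62.3% of all genes tested. Of them, 16 were higher in the *Rax* iCKO mouse of both pairs (30.7% of all genes) and 5 lower in both (31.7%). Groups separated upwards for 6 of the 27 genes, for 11 of 46 with no filter (13.7% of all genes), for 2 with the bipolar scale (2.09%), and for 10 to 15 with a library left out (29.7% to 35.0%), where a group of 1 separates more easily. They separated downwards for 3 genes, for 1 of 17 at a mean FPKM of at least 5 (14.5% of all genes), for 5 with equal medians (15.2%), and for 3 to 8 with a library left out (29.1% to 35.3%). The median log2 fold change was 0.26 (all genes -0.0044), against 0.11 with no filter, 0.0098 with the bipolar scale (all genes -0.25), and -0.012 (without control mouse 7984) to 0.22 with a library left out. The bipolar scale, which lowers every log2 fold change by the same amount, turned the sign of *Gabra3* (-0.087), *Gabrr1* (-0.016), *Glra1* (-0.13), *Grin3a* (-0.20) and *Grm7* (-0.21). No other alternative with 4 libraries turned the sign of any of the 24 receptor genes followed one by one. Of these 24, 14 had a mean FPKM of at least 5 and entered the alternative with that minimum. Leaving out a library turned 12 of these 24, whose log2 fold changes ran from -0.46 to 1.98 for *Gabbr2*, -0.33 to 0.19 for *Gabrb2*, -0.34 to 0.20 for *Gabrd*, -0.16 to 0.62 for *Gabrr1*, -0.025 to 0.98 for *Gabrr3*, -0.24 to 0.46 for *Glra1*, -0.13 to 0.65 for *Gria2*, -0.018 to 1.01 for *Grik1*, -0.16 to 0.67 for *Grik5*, -0.47 to 0.56 for *Grin3a*, -0.012 to 0.64 for *Grm5* and -0.48 to 0.55 for *Grm7*. The cause of these moves was not tested.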
